A study of Mus musculus with 16 samples.

Results

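Macrophages carrying a type I interferon signature were described among CD45-enriched cells of subcutaneous B16 melanomas, profiled by droplet single-cell RNA sequencing. A cell belonged to this population when it held at least 10 unique molecular identifiers (UMIs, counted transcripts) of C1qa, C1qb and C1qc, no UMI of Cd3d, Cd3e or Cd3g, at most 1 UMI of Nos2, at most 1 UMI of Lyve1, Cd163 and Cd209f together, and at least 5 UMIs of Rsad2, Ifit1, Ifit2 and Ifit3 together. Barcodes needed 200 genes or more and no more than 10% mitochondrial UMIs. Of the 99357 kept, 21775 passed the first 4 conditions and are called C1q macrophages. Of these, 2409 (11.1%) also passed the fifth and are the members, which were thus selected on measured UMIs of these 14 genes. The 19366 remaining C1q macrophages served as the comparison population.

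The study implanted 1000000 B16 (clone Bro4.1) cells, either control or lacking B2m (the light chain of MHC class I), into C57BL/6J mice. Mice received 100 µg of agonistic anti-CD40 or a rat IgG2a isotype antibody intraperitoneally on days 6, 9 and 12, and tumours were taken on day 14. The sample labels attach the B2m genotype to the mouse and the design text to the tumour cells, and the latter reading is used. Cells of each mouse were marked with a hashtag antibody and pooled, and every library held mice of a single group, so library and group cannot be told apart. The labels list 3 hashtag antibodies for every library, whereas cells could be assigned to 3 hashtags in 2 libraries and to 2 in the other 6. Each hashtag with assigned cells was taken as 1 mouse, which no label states, and every value and n per mouse rests on this. Members could be compared in 5 mice with control tumours and isotype, 2 mice with control tumours and anti-CD40, 3 mice with B2m-null tumours and isotype, and 4 mice with B2m-null tumours and anti-CD40. Anti-CD40 in control tumours was a single pool run on 2 lanes, whose first hashtag took 27.7% and 26.01% of assigned barcodes. Nothing states that mice of a group came from separate experiments, and p-values measure the spread between these mice. B16 is a transplantable mouse melanoma line, and all of these macrophages are host cells with an intact B2m gene, so they do not check the tumour genotype. Levels are given in CPM, the UMIs of a gene scaled to 1000000 UMIs of the pooled cells of a mouse, and B2m in the members lay between 2993 and 5139 CPM in every mouse.

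Type I interferons (interferon beta, encoded by Ifnb1, and the interferon alphas) bind the receptor Ifnar1/Ifnar2 and signal through Jak kinases and a complex that includes Stat2 and Irf9. This complex binds interferon-stimulated response elements (ISREs) before genes such as Rsad2 (viperin, an antiviral enzyme), the Ifit genes (binders of foreign RNA) and Isg15 (a ubiquitin-like modifier). Interferon gamma acts chiefly through gamma-activated sites (GAS) and raises chemokines such as Cxcl9 together with antigen presentation. CD40 is a receptor on macrophages, dendritic cells and B cells that agonistic antibodies engage in place of T cell CD40 ligand.

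The promoters of the genes that carry the signature show how these elements sit before the transcription start. RefSeq promoter windows (GRCm38.p6, from 250 bases before to 50 after each start) were searched on both strands for GAAANNGAA, the repeat core of an ISRE, whose reverse complement reads TTCNNTTTC. Overlapping matches were each counted. Stretches of the windows that hold matches are given below in the direction of transcription, with the matched letters in capitals. They are at chr12:26456553-26456581 (minus strand) for Rsad2, chr19:34640770-34640823 (plus) for Ifit1, chr19:34583364-34583445 (plus) for Ifit3, chr4:156200866-156200906 (minus) for Isg15, chr5:120777710-120777744 (minus) for Oas3 and chr5:92349084-92349112 (minus) for Cxcl10.
Rsad2: tggtccaactTTCATTTTCagaaaacaga
Ifit1: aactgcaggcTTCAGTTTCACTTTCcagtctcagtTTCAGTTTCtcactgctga
Ifit3: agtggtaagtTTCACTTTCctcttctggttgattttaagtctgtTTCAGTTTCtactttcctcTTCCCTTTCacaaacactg
Isg15: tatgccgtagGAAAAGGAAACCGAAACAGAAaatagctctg
Oas3: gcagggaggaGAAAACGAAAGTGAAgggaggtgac
Cxcl10: tcacgctttgGAAAGTGAAacttacctca
Ifit1, Ifit3 and Isg15 hold 3 matches each and Oas3 2 overlapping ones. No match lay in the windows of Ifit2, Cmpk2, Irf7 or Ifnb1, which says only that these letters are not in those windows.

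Of the Ifi200 family (cytosolic DNA sensors of the PYHIN class) on chromosome 1, Ifi208, Ifi206, Ifi213 and Ifi203 held the same matched letters, Ifi205 and Ifi211 held GAAATTGAA, and the window of Ifi209 held no match. The stretches at chr1:173673597-173673625 (plus strand, Ifi208), chr1:173491340-173491368 (minus, Ifi206) and chr1:173599327-173599355 (minus, Ifi213) are shown as examples. These 3 genes were among the highest in the members, and whether reads of such related genes were told apart in counting was not tested.
Ifi208: cgtctctgagGAAATCGAAagctatgaac
Ifi206: tgtctctgagGAAATCGAAagctatgaac
Ifi213: cgtctctgagGAAATCGAAagctatgaac
Among the 30 genes highest in the members, 28 had a promoter window (all but Usp18 and Rtp4), and 16 of the 28 (57.1%) held the ISRE letters. Of all 27025 genes with a window, 2638 (9.76%) held them in at least 1, and of the 4712 matched genes expressed at 20 CPM or more in C1q macrophages, 471 (10.0%) did. The GAS letters TTCNNNGAA were in 9.55% of all genes with a window and in 1 of the 28 (3.57%). Of the 10 genes lowest in the members, 8 had a window and 1 of the 8 (12.5%) held ISRE letters. These matches describe the windows and are no measurement of binding.

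The rule cut a continuous range. Of the C1q macrophages, 12475 had no UMI of the 4 interferon genes, 3856 had 1, 1617 had 2, 875 had 3 and 543 had 4, just outside the rule. Just inside it, 379 had 5 and 262 had 6. The cells with 4 UMIs held a median of 7461 UMIs in all and 45 of C1q, and those with 5 held 7750 and 42. Among the members, 1193 had 5 to 9 of these UMIs, 644 had 10 to 19 and 572 had 20 or more, with a median of 10 (interquartile range 6 to 19) and a highest value of 215. Most members carried several of the 4 genes: 1048 (43.5%) had all 4, 899 (37.3%) had 3, 386 (16.0%) had 2 and 76 (3.15%) had 1. Rsad2 was detected in 90.7% of members and gave 43.9% of the counted interferon UMIs, Ifit2 in 85.6% (24.2% of the UMIs), Ifit1 in 77.3% (19.98%) and Ifit3 in 67.5% (11.9%). The signature therefore leaned on Rsad2 more than on any of the Ifit genes.

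Every library contributed members: 755 and 440 from isotype in control tumours, 120 and 124 from the lanes of anti-CD40 in control tumours, 194 and 353 from isotype in B2m-null tumours, and 158 and 265 from anti-CD40 in B2m-null tumours. Libraries held 45985739 to 99264875 UMIs in all. Members were deeper than other C1q macrophages in all 8 libraries, with median UMIs per cell of 6334 to 10887 against 4104.5 to 9087. A fixed UMI threshold admits deep cells more readily, and shares are therefore also given at equal depth. Cells with 2 hashtags made up 437 of the 2409 members and were left out of all values per mouse, as were 236 members without an assignment. Cells with 2 hashtags were a larger share of members than of other C1q macrophages in 6 of 8 libraries, for example 28.2% against 15.7% and 21.2% against 10.6% in the libraries that gave the most members in isotype-treated control and B2m-null tumours, and a smaller one in the other two (3.23% against 3.86% and 1.27% against 1.83%). Doublets of cells from the same mouse carry 1 hashtag and were not removed, and their part in the depth of the members and in their melanoma transcripts was not tested. Of the 1736 members on 1 hashtag, 1714 belonged to the 14 mice used for expression. One library of isotype-treated B2m-null tumours assigned only 25.5% of its barcodes and gave 1 expression mouse with 32 members. Only 1 member barcode sequence occurred in more than 1 library (1649 of 114890 distinct sequences in all).

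Of the 10 macrophage markers, the rule itself used C1qa, C1qb and C1qc. The 7 others were all detected in the members of each group, with summed levels of 2997 to 7791 CPM per mouse (3433 to 8802 in other C1q macrophages). Mast cell and basophil markers summed to at most 2.01 CPM. Of 11 T and NK cell markers, Il7r alone stood at 129 to 251 CPM in members and 67.8 to 137 in the others, and the 10 remaining ones summed to 5.84 to 120 CPM in members and 20.99 to 71.1 in the others. Plasmacytoid dendritic cell markers summed to 2.01 to 42.3 CPM, near the 4.36 to 19.8 CPM of the others. Melanoma transcripts (6 markers) were unevenly present: 37.3 to 2701 CPM in members of isotype-treated control tumours, 2102 and 2226 under anti-CD40 in control tumours, 44.9 to 596 and 12.0 to 1033 in the corresponding B2m-null groups. The highest sum in other C1q macrophages was 690 CPM. Fibroblast and endothelial markers (6, all detected) summed to 24.9 to 178 CPM in members of isotype-treated control tumours, 26.3 and 290 CPM under anti-CD40 in control tumours, 23.997 to 29.9 CPM in isotype-treated B2m-null tumours and 25.5 to 2452 CPM under anti-CD40 in B2m-null tumours. More than 5 melanoma UMIs were found in 13 of 224 members (5.80%) of anti-CD40-treated control tumours and 13 of 874 (1.49%) of isotype-treated ones. The part of melanoma transcripts in the results was not tested beyond the values without such cells given below.

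What distinguished the members within a mouse is a description, since the 4 genes of the rule chose them. Beside the other C1q macrophages of the same mouse, members held higher levels of genes that interferon is known to induce, of Ifnb1 itself and of Cxcl10, and lower levels of Stab1, Mrc1, Adgre1 and Csf1r. Of 5833 genes outside the rule with a mean of at least 20 CPM in either population, 48 (0.823%) had a median log2 ratio of at least 1 over the 14 mice and were higher in every mouse, and none had a ratio of -1 or lower with the same sign in every mouse. Without a limit on the ratio, 177 genes (3.03%) were higher in every mouse and 198 (3.39%) lower. The median over all genes was -0.07.

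**Figure D1:**
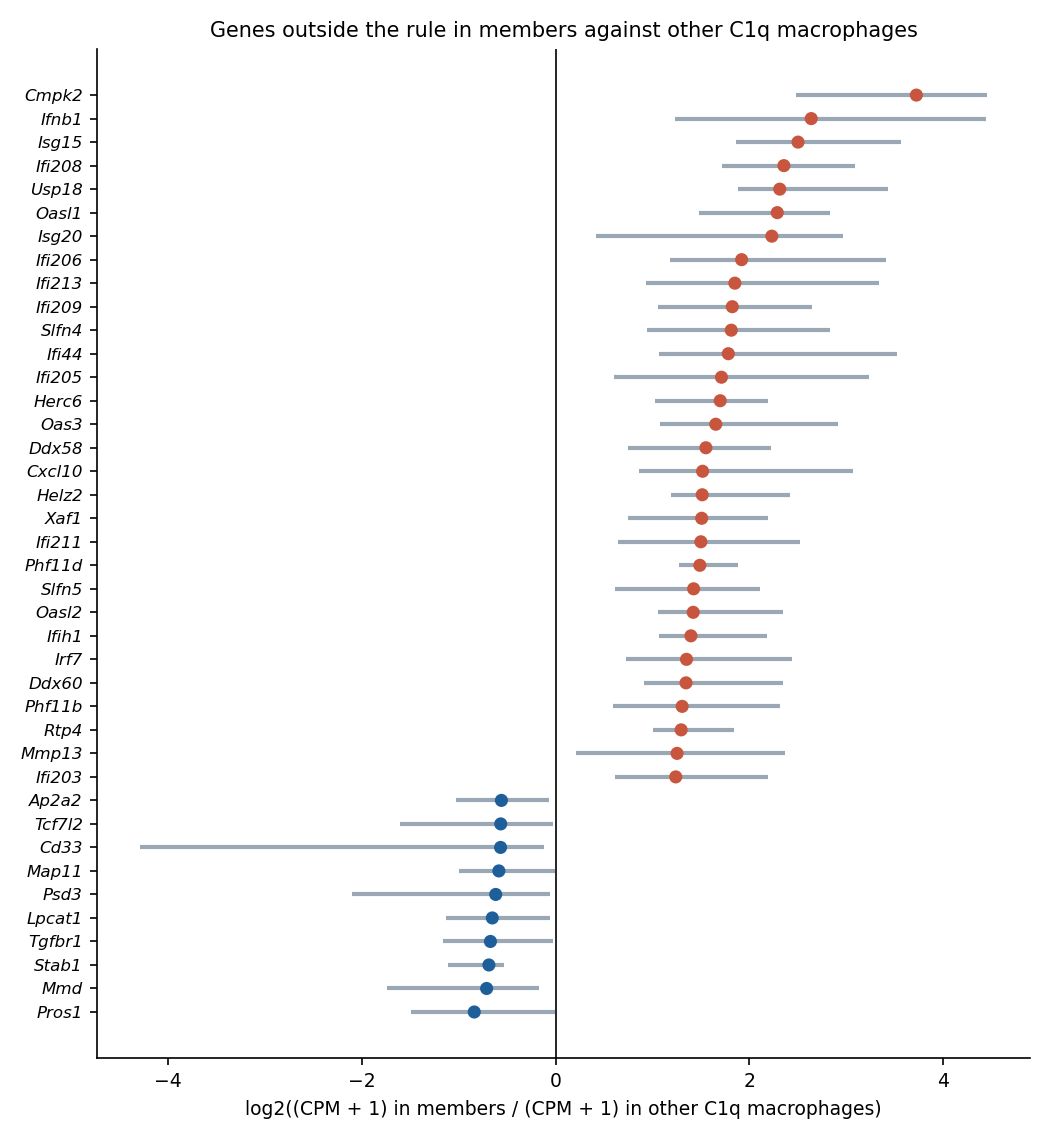
Log2 ratio of CPM in interferon-signature macrophages over other C1q macrophages (x axis, pseudocount of 1 CPM) for the 30 highest and 10 lowest genes outside the rule, with points at the median of 14 mice and bars from the lowest to the highest mouse. Cmpk2, Ifnb1 and Isg15 lie to the right in every mouse, and the lower genes lie within 1 log2 unit of 0 at the median.

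Cmpk2, a mitochondrial nucleotide kinase encoded beside Rsad2, was the highest gene outside the rule, at a mean of 150 CPM in members and 11.4 in the others (median log2 ratio 3.72, range 2.48 to 4.46 over 14 mice). Isg15 stood at 686 against 130 CPM (2.5). Usp18, which removes Isg15 from proteins and restrains the receptor, stood at 66.5 against 11.7 CPM (2.31). Oasl1, a member of the oligoadenylate synthetase-like family, stood at 156 against 33.0 CPM (2.29). These 4 genes were higher in all 14 mice. Of 42 measured antiviral effectors outside the rule, 40 were higher in every mouse and 30 at least 2-fold at the median, with a list median of 1.30.

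The transcription factor Irf7, which amplifies interferon alpha production, was at 246 CPM in members and 98.0 in the others (median log2 ratio 1.35). Stat2 differed by 1.21, at 75 against 31 CPM. The RNA sensors Ddx58 (RIG-I) and Ifih1 (MDA5) stood at 93.2 against 29.4 CPM (1.55) and 125 against 43.2 CPM (1.40). Outside such inducible members the signalling genes differed little, as 3 of 20 measured genes of interferons, receptors and signalling and 3 of 17 of nucleic acid sensing were at least 2-fold higher at the median and higher in every mouse, with list medians of 0.15 and 0.24.

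Genes that lean on interferon gamma separated less. Of 18 measured, 8 were higher in every mouse and 2 of these at least 2-fold at the median (list median 0.54), among them the GTPase Irgm1 at 230 against 111 CPM (1.08) and Acod1, which makes itaconate, at 112 against 59 CPM (1.04). Cxcl10, a ligand of Cxcr3 that both kinds of interferon raise, stood at 1048 against 367 CPM (1.52), whereas Cxcl9, another Cxcr3 ligand, stood at 559 against 632 CPM (-0.24) and was higher in 4 of 14 mice. MHC class I presentation had a median of 0.19 with 3 of 19 genes higher in every mouse, and MHC class II presentation -0.06 with 0 of 8. The inhibitory ligand Cd274 (PD-L1) at 256 against 148 CPM (0.79), the lymphocyte cytokine Il15 at 41 against 21 CPM (0.96) and the chemokine Ccl4 at 1415 against 784 CPM (0.85) were higher in all 14 mice. So was Il7r, a receptor chain known from lymphocytes, at 183 against 102 CPM (0.90).

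Lower levels in the members were modest. Stab1, a scavenger receptor, stood at 150 against 258 CPM (median log2 ratio -0.69), and Mrc1, the mannose receptor CD206, at 639 against 888 CPM (-0.53). Both were lower in all 14 mice, and so were Adgre1 (F4/80, -0.37) and Csf1r (the receptor of M-CSF, -0.33). Of 29 measured macrophage state genes, Mrc1, Adgre1 and Csf1r were the 3 lower in every mouse and Mmp13, a collagenase, was higher (1.25), with a list median of 0.05. Of 10 measured monocyte genes, Ms4a4c (1.20), which interferon is also known to raise, was the only one at least 2-fold higher at the median and above 0 in every mouse (lowest 0.47), and the list median was 0.55. Ly6c2 (0.71) and Plac8 (0.96) were higher in 13 of 14 mice. None of 17 measured NF-kB targets and none of 14 dissociation and heat shock genes was higher in every mouse (medians 0.05 and -0.03).

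Over the range of the 4 rule genes the levels of other genes followed different courses. Isg15 averaged 80.1 CPM over the 8 libraries in cells with no rule UMI, 172 with 1 to 4, 406 with 5 to 9, 635 with 10 to 19 and 1142 with 20 or more. Cmpk2 went from 6.98 to 16.4, 49.2, 108 and 372 CPM over the same bins. Irf7 flattened, at 69.6, 114, 185, 225 and 268 CPM. Ifnb1 was at 2.24, 3.38, 9.41, 26.3 and 75.7 CPM, so that most of its level lay in the highest bins. Cxcl10 reached 1824 CPM in the highest bin from 272 in the lowest, while Cxcl9 stayed between 529 and 735 CPM and H2-K1, an MHC class I heavy chain, between 2364 and 2554. Mrc1 stood at 922 CPM in cells with no rule UMI and at 606 in those with 20 or more. The ranges of libraries in the lowest and highest bins did not overlap for Isg15 (39.8 to 139 against 737 to 1414 CPM) or Irf7 (32.7 to 130 against 149.5 to 367 CPM), and they overlapped for Mrc1 (414 to 1679 against 264 to 1261 CPM). Median depth was 5483 UMIs in the lowest bin and 9038.5 in the highest, and CPM scale to it.

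**Figure D2:**
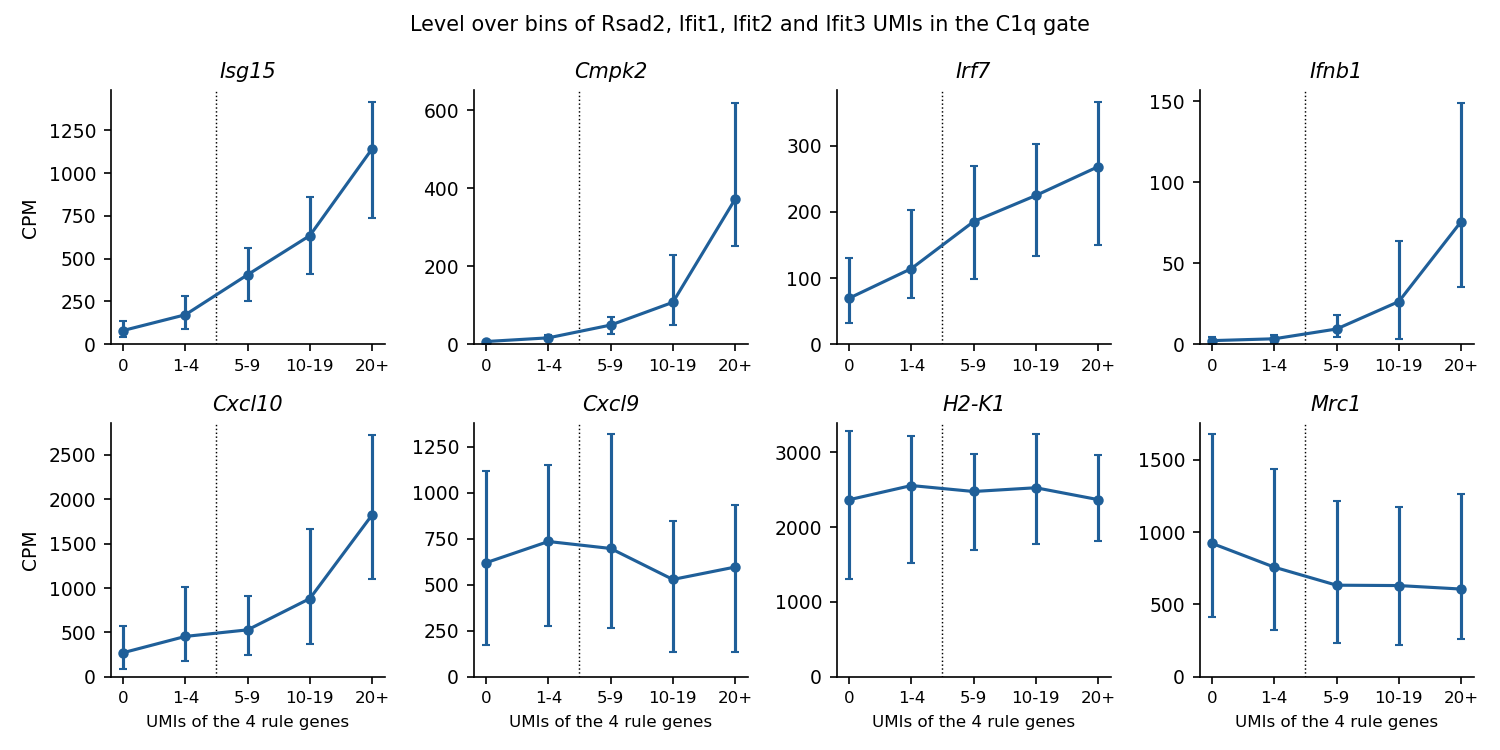
Mean CPM (y axis) against the number of UMIs of Rsad2, Ifit1, Ifit2 and Ifit3 in a cell (x axis, 5 bins) in C1q macrophages, with points for the mean over 8 libraries and bars from the lowest to the highest library; the dotted line marks the threshold of the rule. Isg15, Cmpk2, Irf7, Ifnb1 and Cxcl10 climb over the bins, the means of Cxcl9 and H2-K1 stay level, and the mean of Mrc1 is highest in cells without a rule UMI with wide overlap between libraries.

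Ifnb1, the gene of interferon beta, was detected in 228 of 2409 members (9.46%, exact 95% interval 8.32 to 10.7%) and in 308 of 19366 other C1q macrophages (1.59%, 1.42 to 1.78%). Their median depths were 8132 and 5856.5 UMIs. Barcodes with CD3 UMIs and no C1q UMI, which should lack the transcript, showed it in 43 of 18926 (0.227%). The median of their per-library median depths was 2318 UMIs. The intervals cover counting error only. Members held 66.5% of all Ifnb1 UMIs in C1q macrophages (794 against 400), and 1 member alone held 41. Members with Ifnb1 had a median of 16.5 rule UMIs and 7 of Cxcl10, against 9 and 2 in members without it, at depths of 9126 and 8040 UMIs. By group, 9.46% of members in isotype-treated control tumours had Ifnb1, 10.7% under anti-CD40 in control tumours, 6.58% in isotype-treated B2m-null tumours and 12.5% under anti-CD40 in B2m-null tumours. Per mouse, Ifnb1 stood at 13.7, 16.4, 31.1, 54.1 and 45.7 CPM, at 8.76 and 29.0, at 6.53, 20.9 and 13.9, and at 20.02, 12.0, 56.0 and 72.9 CPM in the same order of groups. The groups overlapped, and no contrast of Ifnb1 between groups passed in edgeR (log2 change 1.67 ± 0.52, adjusted p = 0.0751, for anti-CD40 in B2m-null tumours).

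The share of C1q macrophages that met the interferon rule was compared per mouse. It was highest in isotype-treated control tumours, at 21.5%, 14.6%, 18.1%, 12.8% and 11.9% (mean 15.8% ± 3.98 SD, n = 5). Under anti-CD40 in control tumours it was 5.53% and 6.21% (5.87% ± 0.482 SD, n = 2). In B2m-null tumours it was 3.96%, 10.1%, 14.7% and 6.87% with isotype (8.91% ± 4.62 SD, n = 4) and 7.20%, 7.40%, 9.21% and 10.4% with anti-CD40 (8.56% ± 1.54 SD, n = 4). The control groups did not overlap, and the 4 B2m-null values under isotype spanned those under anti-CD40. A further mouse with 52 C1q macrophages was not used.

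**Figure D3:**
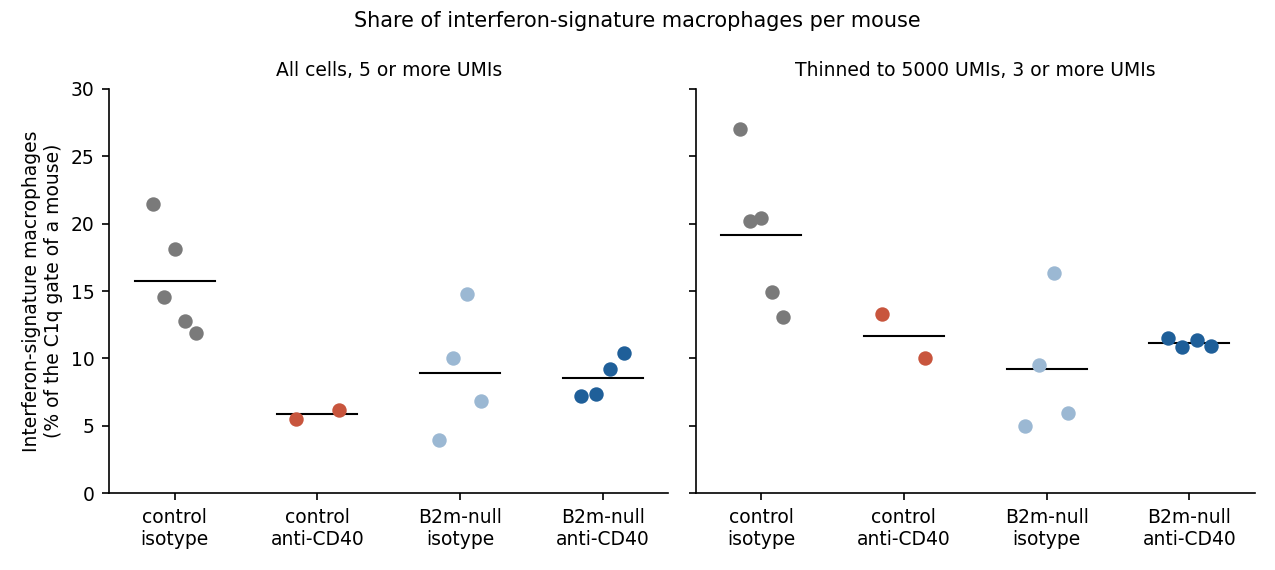
Share of C1q macrophages that met the interferon rule (y axis, percent) by group, with 1 point per mouse and a bar at the mean, from all UMIs and after thinning each cell to 5000 UMIs. The 2 anti-CD40 mice with control tumours lie below all 5 isotype mice from all UMIs. After thinning, 1 anti-CD40 mouse (13.3%) lies just above the lowest isotype mouse (13.1%), and the other (10.1%) stays below all 5.

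The share differed by -9.91 percentage points between anti-CD40 and isotype in control tumours (two-sided exact permutation test, p = 0.0952, the smallest that 2 against 5 mice allow; Benjamini-Hochberg adjusted over 4 comparisons 0.178), and by -6.47 points without the first isotype library. In B2m-null tumours the difference was -0.345 points (exact permutation p = 0.914, adjusted 0.914). B2m-null minus control tumours gave -6.86 points under isotype (exact permutation p = 0.0794, smallest possible 0.0159, adjusted 0.178), and -3.43 points without the first isotype library of control tumours (exact permutation p = 0.533). They gave 2.70 points under anti-CD40 (exact permutation p = 0.133, the smallest possible, adjusted 0.178). The anti-CD40 effects differed by 9.56 points between the tumour genotypes (exact permutation over 1470 arrangements, p = 0.0599). Treatment labels were permuted within each genotype, so the null is no anti-CD40 effect in either genotype, which is narrower than equal effects. None of these differences passed 0.05. At an equal depth of 5000 UMIs and a threshold of 3 UMIs, mean shares were 19.1% and 11.7% in control tumours (exact permutation p = 0.19, overlapping) and 9.20% and 11.1% in B2m-null tumours, so the sign in B2m-null tumours turned. At that depth the genotype difference under isotype was -9.94 points (exact permutation p = 0.0476, adjusted 0.19) and that under anti-CD40 was -0.540. Thinning left out 40.9% and 53.7% of assigned C1q macrophages of control tumours (isotype, anti-CD40) and 25.5% and 35.9% of those of B2m-null tumours.

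Levels within the members were compared with edgeR's quasi-likelihood test on summed UMIs per mouse. Benjamini-Hochberg adjustment was over all genes tested, 9216 of them outside the rule. Mice that share a library are not separate runs. Members were admitted at a fixed count of interferon UMIs, and how far this limits or shifts changes of closely linked genes was not tested. Median UMIs per member were 5130.5 to 8266 (isotype) and 7222 and 7979 (anti-CD40) over the mice with control tumours. With B2m-null tumours they were 7112.5 to 10628 and 5144 to 10937. The signature genes (the 4 of the rule and Cmpk2) summed to 1699 to 2423 against 1304 and 1810 CPM in control tumours. In B2m-null tumours they summed to 1673 to 2249 against 1420 to 2155 CPM. The groups of isotype-treated mice serve as reference in more than 1 comparison. Lack of overlap was a condition for naming the genes of largest rise or fall, so it describes them and adds no support.

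In control tumours, members from anti-CD40-treated mice held lower levels of many antiviral and monocyte genes and of several chemokines. Adjusted p was under 0.05 for 350 higher genes (3.8%) and 225 lower genes (2.44%). Of 44 antiviral effectors tested, 21 fell and 0 rose, with a list median of -0.76 (all genes -0.01). Of 12 monocyte genes, 7 fell and 0 rose, with a median of -1.93. Of 20 chemokines, 5 fell (Ccl9, Ccl2, Pf4, Cxcl2 and Ccl12) and Ccl8 rose (0.89 ± 0.24, adjusted p = 0.0334). The Ccl8 call was lost in 5 of 16 alternatives, among them members with no dendritic cell marker UMI (0.86, edgeR adjusted p = 0.0739). Of 20 genes leaning on interferon gamma and of 19 of MHC class I presentation, none passed in either direction (medians 0.38 and 0.19). In other C1q macrophages, where 7.02% of all genes fell, 6 antiviral effectors (median -0.39) and 3 monocyte genes (-0.97) fell and 0 rose. Of the chemokines 6 fell and 1 rose there. Of the interferon gamma list 2 rose (median 0.54) and of MHC class I presentation 6 (0.42), with 0 lower in either.

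Irf7 stood at 284, 319, 266, 265 and 344 CPM with isotype and at 149 and 121 CPM with anti-CD40. The groups did not overlap, and the log2 change of Irf7 was -1.03 (SE 0.17, edgeR adjusted p = 0.000652). Slfn4, a Schlafen family gene that interferon induces in myeloid cells, went from 79.4, 119, 70.1, 66.5 and 128 CPM to 5.84 and 11.6. It fell by 2.94 (SE 0.36, edgeR adjusted p = 3.72e-05). Ifit1bl1, a relative of Ifit1 that could share its reads, went from 33.9 to 51.2 CPM to 2.92 and 5.32 (log2 change -2.94 ± 0.41, adjusted p = 0.00011). The first of the 2 anti-CD40 mice held 41 members and 342486 UMIs. Its values of a few CPM, here and below, thus rest on very few UMIs. Without the second lane this mouse held fewer than 20 members, so expression fits without that lane rest on a single anti-CD40 mouse. Fits with at least 10 interferon UMIs or at least 50 members per mouse do so too. Isg15 stood at 922, 831, 808, 775 and 837 CPM with isotype and at 406 and 540 with anti-CD40. The log2 change of Isg15 was -0.66 ± 0.15 (adjusted p = 0.00814), but it did not pass among members with at most 5 melanoma and 5 neutrophil UMIs (-0.55, adjusted p = 0.0548) or with the library as the unit (-0.49, adjusted p = 0.212). In the fits by library, anti-CD40 in control tumours is 1 pool and thus 1 sample, which is assumed to vary like the other groups, and all members of a library are counted, those with 2 or no hashtags included. Usp18 (-0.87, adjusted p = 0.0292) and Ifih1 (-0.82, adjusted p = 0.0272) also fell. Among members with few melanoma and neutrophil UMIs they stood at -0.68 and -0.69 (adjusted p = 0.135 and 0.0666), and by library at -0.88 and -0.74 (adjusted p = 0.0719 and 0.119), so neither passed in those fits.

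**Figure D4:**
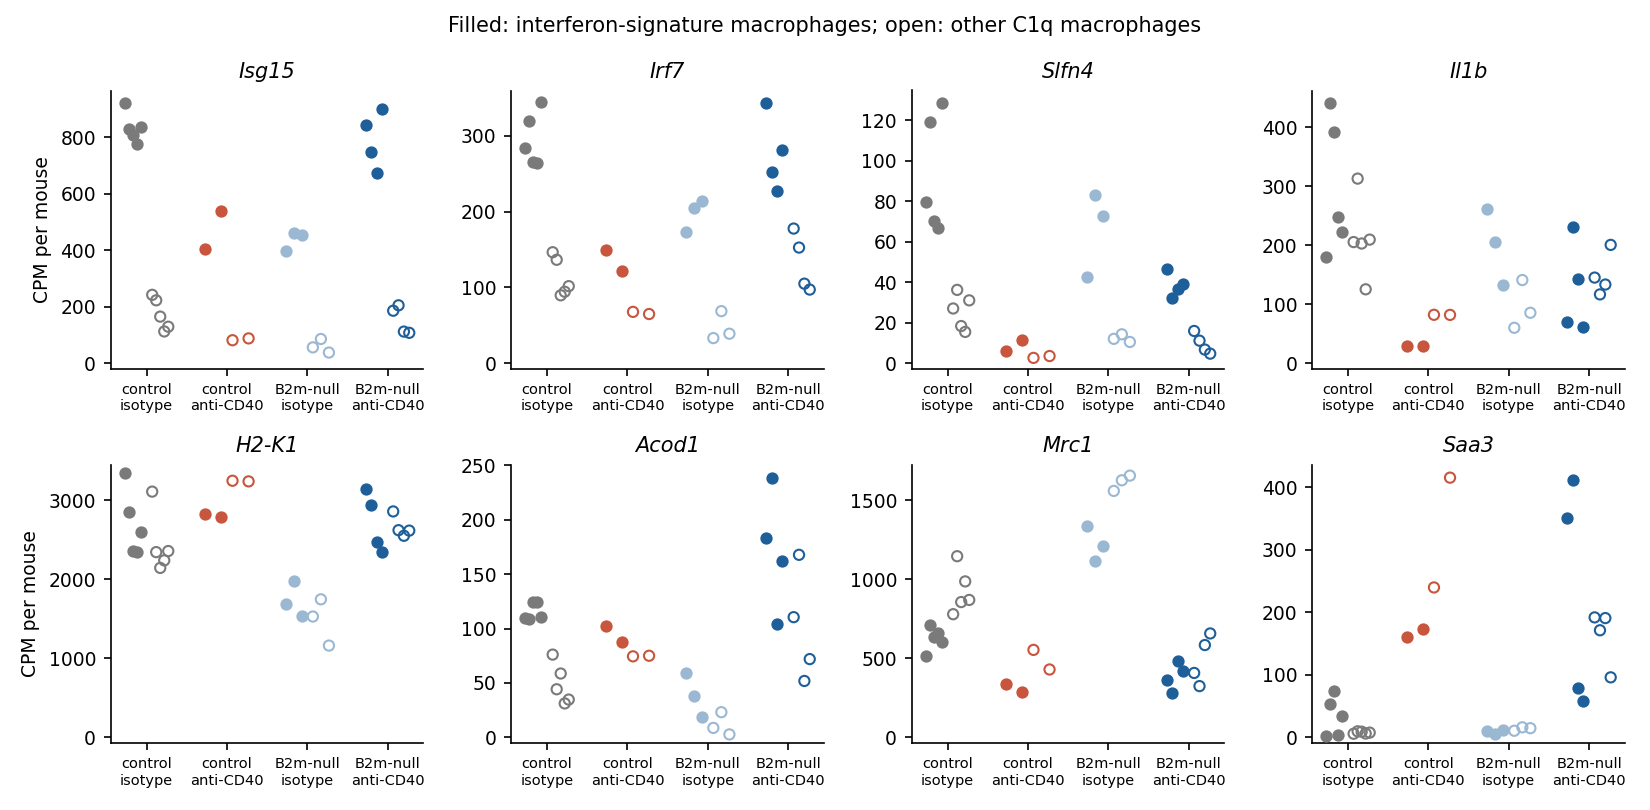
CPM per mouse (y axis) by group for 8 genes in interferon-signature macrophages (filled points) and other C1q macrophages (open points). Irf7 in the members is lowest in the 2 anti-CD40-treated mice with control tumours (149 and 121 CPM), and H2-K1 and Acod1 are lowest in the 3 isotype-treated mice with B2m-null tumours.

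Of the monocyte genes, Ly6c2, the surface marker of inflammatory monocytes, stood at 144, 216, 86.6, 102 and 218 CPM with isotype and at 11.7 and 22.7 CPM with anti-CD40. It fell by 2.72 (SE 0.48, adjusted p = 0.00128). Vcan, a matrix proteoglycan of monocytes, stood at 30.7 to 76.1 CPM and at 2.92 and 6.29 (-3.00 ± 0.49, adjusted p = 0.000631). Ccr2, the receptor that brings monocytes into tissue, stood at 133 to 430 CPM and at 46.7 and 37.3 CPM (-2.36 ± 0.49, adjusted p = 0.00547). None of these 3 genes overlapped between the groups, which was a condition for naming them. Ccl2, the ligand of Ccr2, stood at 2649 to 5579 CPM with isotype and at 1507 and 1704 CPM with anti-CD40, again without overlap (-1.28 ± 0.24, adjusted p = 0.00193). The Ccl2 call was lost in 4 of 16 alternatives. Among them were the library as the unit (-1.19) and leaving out the second anti-CD40 lane (-1.15), each of which leaves a single anti-CD40 sample. The change of Ccl2 was -0.75 without the first isotype library (edgeR adjusted p = 0.0336). The inflammatory cytokine Il1b stood at 180 to 441 CPM and at 29.2 and 28.6 CPM (-3.22 ± 0.52, adjusted p = 0.000615). Thbs1, Ms4a4c and Plac8 fell as well.

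Ccr7, a homing receptor of mature dendritic cells, stood at 15.8 to 48.1 CPM with isotype and had 0 UMIs with anti-CD40. A count of 0 there allows up to 1.25 CPM over the group (3 UMIs), at least 17.6-fold lower than the pooled 21.98 CPM with isotype (edgeR adjusted p = 0.00414). The lectin Mgl2, known from dendritic cells and alternatively activated macrophages, fell by 4.54 (SE 0.87, adjusted p = 0.00288). Conventional dendritic cell markers moved with them: the sum of 9 markers, Ccr7 among them, was 44.4 to 110 CPM in members with isotype and 2.92 and 13.5 with anti-CD40, and 33.0 to 73.2 against 6.56 and 13.6 CPM in other C1q macrophages. Among members with no UMI of these markers Mgl2 still fell (-4.71, adjusted p = 0.00987).

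Genes that rose with anti-CD40 in control tumours included Ubd, a ubiquitin-like modifier that inflammatory cytokines induce (log2 change 3.59 ± 0.86, adjusted p = 0.0171), the secreted protease Htra1 (3.12 ± 0.55, adjusted p = 0.00128) and the acute phase protein Saa3 (2.47 ± 0.72, adjusted p = 0.0473). Saa3 stood at 2.56, 53.7, 74.4, 3.83 and 34.7 CPM with isotype and at 161 and 174 CPM with anti-CD40, so the isotype mice differed widely among themselves. The Saa3 call was lost in 8 of 16 alternatives. Without the second anti-CD40 lane, which leaves a single anti-CD40 mouse, the change of Saa3 was 1.89. Wfdc17, a whey acidic protein domain gene of activated myeloid cells, stood at 1528 to 2352 CPM and at 5971 and 4083 CPM (1.47 ± 0.18, adjusted p = 3.72e-05). The lysosomal and lipid-associated genes Gpnmb (1.73 ± 0.33, adjusted p = 0.00274) and Ctsd (0.74 ± 0.20, adjusted p = 0.0363) rose too. They were the 2 of 30 macrophage state genes that rose, while Fcgr1, Mrc1 and Arg1 fell, with a list median of -0.07. Mrc1 fell from 516 to 711 CPM to 336 and 284 (-0.90 ± 0.19, adjusted p = 0.00603). Melanoma and, in 1 of the 2 anti-CD40 mice, neutrophil transcripts (843 CPM) were also high in these members. Without members holding more than 5 melanoma or 5 neutrophil UMIs, 527 genes passed against 575.

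In B2m-null tumours, anti-CD40 was accompanied within the members by higher MHC class I presentation genes and by lower levels of Mrc1 and some other macrophage state genes. Adjusted p was under 0.05 for 177 higher genes (1.92%) and 184 lower genes (2%). Without the second isotype library only 18 genes passed in place of 361, and 15 were shared, and without the first one 135 passed. The former fit leaves 1 isotype mouse of 32 members, which is assumed to vary like the other groups, and its values below carry this limit. Of 19 genes of MHC class I presentation, 11 rose and 0 fell, with a list median of 0.67 (near 0 for all genes). In other C1q macrophages, where 15.6% of all genes rose, 18 of the 19 rose and 0 fell (median 1.02). Of 44 antiviral effectors, 4 rose (Isg15, Rtp4, Ifitm3 and Zbp1) and 1 fell (Ifit1bl1), with a median of -0.03. Of 12 monocyte genes, 3 fell (Thbs1, Vcan and F13a1) and Ly6a rose (1.30 ± 0.27, adjusted p = 0.0149). Of 30 macrophage state genes, Mrc1, Maf, Ccl24 and Slc40a1 fell and 0 rose, with a list median of -0.01.

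H2-K1 stood at 1687, 1978 and 1534 CPM in members with isotype and at 3146, 2943, 2472 and 2346 CPM with anti-CD40. The groups did not overlap (log2 change 0.78 ± 0.14, edgeR adjusted p = 0.00553). H2-Q7, a nonclassical class I gene with close copies, stood at 39.2, 84.6 and 72.8 CPM and at 297, 243, 195 and 231 CPM (1.85 ± 0.19, adjusted p = 7.16e-05). B2m rose by 0.60 (adjusted p = 0.0145) and Psmb8, an immunoproteasome subunit, by 0.89 (adjusted p = 0.00514). Without the second isotype library of B2m-null tumours, which holds 2 of the 3 mice, H2-Q7 passed (2.76, adjusted p = 0.00321), but H2-K1 (0.86, adjusted p = 0.157), B2m (0.75, adjusted p = 0.164) and Psmb8 (1.07, adjusted p = 0.143) did not. B2m did not pass without the first one either (0.54, adjusted p = 0.0666). Cd74, the class II invariant chain, was the only one of the class II genes to pass (0.69 ± 0.18, adjusted p = 0.0428), and did not without the first isotype library (0.50, adjusted p = 0.164).

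Isg15 stood at 398, 462 and 454 CPM with isotype and at 844, 748, 673 and 902 CPM with anti-CD40 in B2m-null tumours. It rose by 0.96 (SE 0.13, adjusted p = 0.00075), and by 0.63 with the library as the unit (adjusted p = 0.0519). Irf7 rose less, from 173, 205 and 214 CPM to 344, 253, 227 and 282 CPM (0.56 ± 0.14, adjusted p = 0.0345). Acod1 stood at 58.8, 38.4 and 18.6 CPM and at 184, 239, 105 and 162 CPM (2.43 ± 0.28, adjusted p = 0.000128). Saa3 stood at 5.64 to 11.6 CPM and at 350, 411, 78.6 and 58.4 CPM, with the 2 libraries of anti-CD40 apart from each other (4.68 ± 0.97, adjusted p = 0.013). Complement C3 rose by 1.91 (adjusted p = 0.00642). Cxcl13, a chemokine that attracts B cells, passed (5.67, adjusted p = 0.0484) on uneven values, with 1 mouse at 106 CPM. Without the second isotype library, Isg15 passed (1.16, adjusted p = 0.0425), but Irf7 (0.82, adjusted p = 0.24), Acod1 (1.67, adjusted p = 0.135), Saa3 (4.53, adjusted p = 0.435), C3 (1.90, adjusted p = 0.327) and Cxcl13 (3.49, adjusted p = 0.69) did not. Without the first one, Irf7 (0.49, adjusted p = 0.107) and Cxcl13 (6.41, adjusted p = 0.0869) did not pass. The antiviral genes Rtp4 and Zbp1 and the monocyte list's Ly6a lost their call both without the first and without the second isotype library. Fibroblast and endothelial transcripts moved with these changes: 5 of 6 markers were tested and none passed, with a list median log2 change of 6.50, and their sum was 23.997 to 29.9 CPM with isotype and 25.5 to 2452 CPM (median 481) with anti-CD40. In other C1q macrophages the sum was 27.3 to 101 and 84.3 to 457 CPM. The part of these transcripts in the changes of Saa3, C3 and Cxcl13 was not tested.

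Mrc1 stood at 1335, 1114 and 1208 CPM with isotype and at 360, 281, 480 and 419 CPM with anti-CD40 in B2m-null tumours, without overlap (-1.51 ± 0.16, adjusted p = 7.16e-05). Cbr2 (-1.81 ± 0.26, adjusted p = 0.00101) and Fcrls (-2.30 ± 0.44, adjusted p = 0.00825) fell as well. Without the second isotype library, again against 1 isotype mouse, Mrc1 passed (-1.60, adjusted p = 0.00979), and Cbr2 (-1.74, adjusted p = 0.158) and Fcrls (-2.15, adjusted p = 0.309) did not. Ccl17, a chemokine of dendritic cells, stood at 199, 89.7 and 2.32 CPM with isotype and had 0 UMIs with anti-CD40, which allows up to 0.883 CPM over the group and is at least 74.9-fold lower than the pooled 66.1 CPM (edgeR adjusted p = 0.00756). These values rest on members assigned to a mouse. Ccl17 gave -4.68 with the library as the unit (adjusted p = 0.00093), and no value without the first isotype library. One of the 3 isotype mice was at 2.32 CPM, so the group mean rests on the other two. Ccl22 (-4.63, adjusted p = 0.0223) and Ccr7 (-4.34, adjusted p = 0.0127) fell with it, although Ccl22 did not pass without the first isotype library (-4.10, adjusted p = 0.0586), and neither did Ccr7 without the second (-4.30, adjusted p = 0.317). Dendritic cell markers summed to 23.2 to 65.3 CPM in these members with isotype and 1.82 to 20.1 CPM with anti-CD40. Among members with no UMI of the 9 markers, too few UMIs of Ccl17 and Ccl22 remained to pass the count filter, and these genes gave no value.

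**Figure D5:**
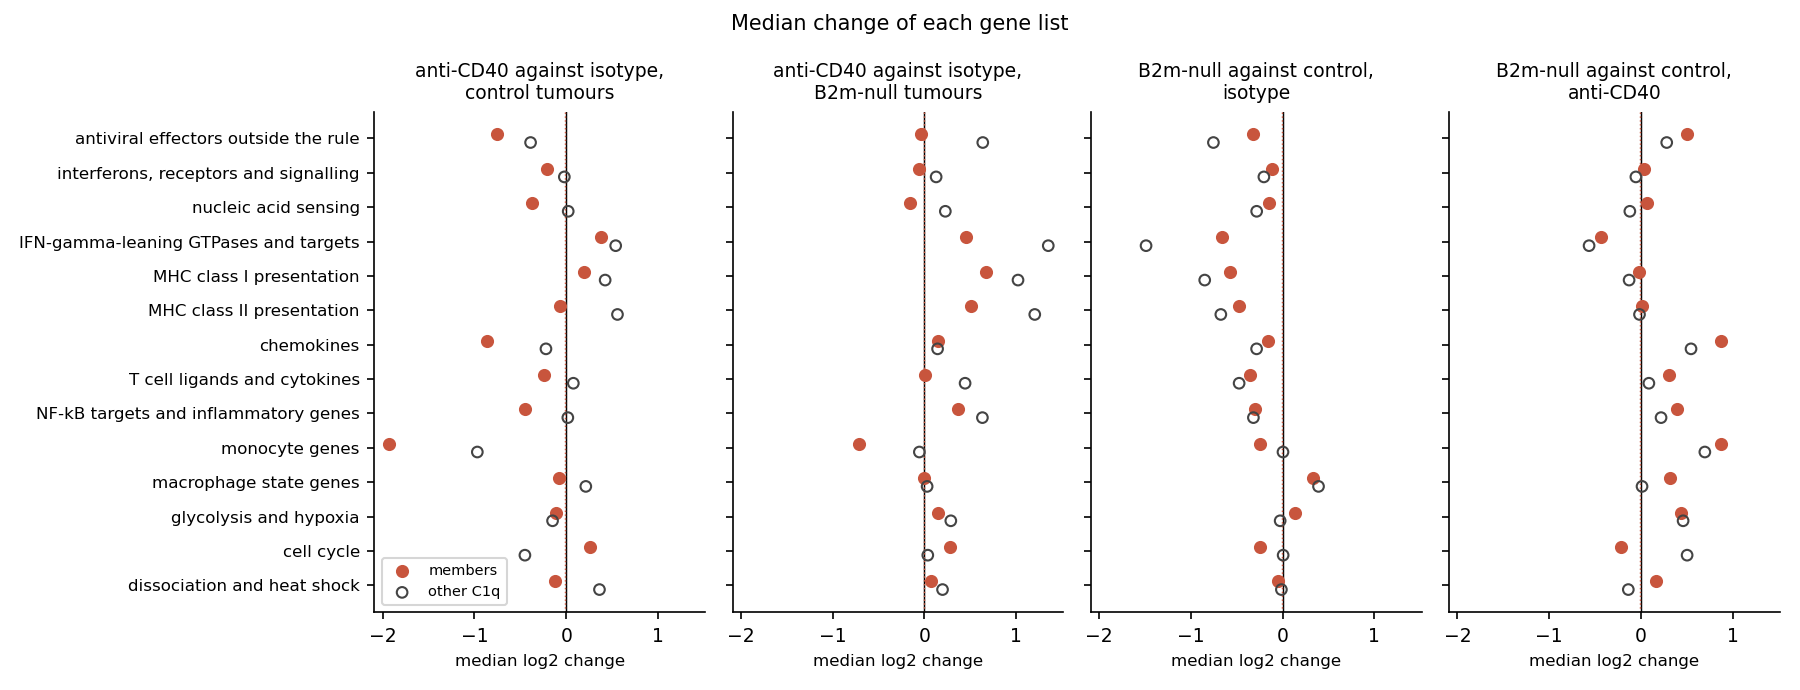
Median log2 change of each gene list (x axis) in interferon-signature macrophages (filled points) and other C1q macrophages (open points) for 4 comparisons, with the median of all genes as a dotted line near 0. Monocyte genes lie at -1.93 and antiviral effectors at -0.76 in members for anti-CD40 in control tumours, and MHC class I presentation at 0.67 for anti-CD40 in B2m-null tumours.

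The anti-CD40 changes of members and other C1q macrophages of the same mice were set against each other in 1 model with the mouse as a block. In other C1q macrophages 1044 genes rose (8.92% of 11701) and 821 fell (7.02%) in control tumours, and 1831 rose (15.6%) and 1680 fell (14.4%) in B2m-null tumours, from far more cells per mouse. The change differed between the populations for 78 of 10984 genes in control tumours (0.71%) and for 27 in B2m-null tumours (0.246%).

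In B2m-null tumours several interferon-inducible genes among the 27 had a smaller anti-CD40 change in the members than in the others. Ly6a changed by 2.42 ± 0.38 in the others (adjusted p = 0.000177) and by 1.30 ± 0.27 in members (adjusted p = 0.0149), and the fitted difference was -1.56 ± 0.21 (adjusted p = 0.0013). The GTPase Ifi47 (-1.19 ± 0.17, adjusted p = 0.00171), Gbp2 (-1.14 ± 0.22, adjusted p = 0.0282) and Irf7 (-1.02 ± 0.21, adjusted p = 0.0483) differed in the same direction. The count of 27 genes fell to 6 without the first isotype library, to 1 without the second and to 9 without the second anti-CD40 library. Ly6a passed in each of these fits (-1.40, -1.96 and -1.41), whereas Ifi47 did not pass without the second isotype library (-1.02, adjusted p = 0.455). Gbp2 passed in none of them (adjusted p = 0.158 without the first isotype and 0.181 without the second anti-CD40 library, -1.53 without the second isotype library). Irf7 did not pass without the first isotype library (edgeR adjusted p = 0.158) or without the second (-1.25). Its call was also lost without the first anti-CD40 library of B2m-null tumours (adjusted p = 0.165) and with RLE factors (0.0554). Leaving out the first isotype library of control tumours (0.0597) or either of their anti-CD40 lanes (0.0596 and 0.0542) lost it too. The Irf7 call was kept without the second anti-CD40 library, without the second isotype library of control tumours and without the count filter. The other C1q macrophages had 23 antiviral effectors and 16 of 20 genes leaning on interferon gamma higher, where members had 4 and 1. Of all genes tested, 15.6% were higher in the others and 1.92% in members, and the difference between the list counts was not tested. Both populations were separated by a count of interferon UMIs, and how far this bounds changes of such genes on either side was not tested. For H2-Q7 the difference was -0.12 ± 0.19 and for Mrc1 0.03 ± 0.12 (adjusted p = 0.966 and 1).

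In control tumours S100a6, a calcium-binding protein of activated myeloid cells, rose in the others by 0.96 ± 0.20 (adjusted p = 0.00397) and was at -0.02 ± 0.27 in members (difference -0.98 ± 0.12, adjusted p = 0.000285). Ccl9, a chemokine of myeloid cells, differed by -0.94 ± 0.18 (adjusted p = 0.0171) and Cd14, the lipopolysaccharide co-receptor, by -1.09 ± 0.20 (adjusted p = 0.0111). Saa3 rose more in the others (5.62 ± 0.25) than in members (difference -3.02 ± 0.64, adjusted p = 0.0286). Stmn1 and Top2a, genes of dividing cells, differed the other way, by 0.99 ± 0.14 (adjusted p = 0.000826) and 0.87 ± 0.20 (adjusted p = 0.0474). For Irf7 (-0.46 ± 0.24, adjusted p = 0.486) and Ly6c2 (-1.28 ± 0.36, adjusted p = 0.103) no difference between the populations was established. The count of 78 genes fell to 11 without the first isotype library and to 24 without the first anti-CD40 lane. The fit without the second lane leaves a single anti-CD40 mouse, so only its changes are given. S100a6 passed without the first isotype library and without the first lane, and stood at -1.11 without the second lane. Stmn1 (0.16, edgeR adjusted p = 0.876) and Top2a (0.14, adjusted p = 0.927) did not pass without the first lane. Without the first isotype library, Ccl9 (-0.70, edgeR adjusted p = 0.206), Cd14 (-0.95, adjusted p = 0.13), Saa3 (-2.20, adjusted p = 0.42) and Top2a (0.84, adjusted p = 0.227) did not pass. Cd14 (-1.08, adjusted p = 0.0548) and Saa3 (-2.49, adjusted p = 0.109) also did not pass without the first anti-CD40 lane. Without the second lane, Ccl9 and Cd14 shrank to -0.65 and -0.86.

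With isotype, members of B2m-null tumours differed from those of control tumours in few genes. Adjusted p was under 0.05 for 32 higher genes (0.347%) and 14 lower genes (0.152%), against 334 (2.85%) and 452 (3.86%) in other C1q macrophages. Isg15 stood at 398, 462 and 454 CPM in B2m-null and at 775 to 922 CPM in control tumours, without overlap (log2 change -0.90 ± 0.13, adjusted p = 0.00402). It was the only one of 44 antiviral effectors to pass (list median -0.33), and Acod1 (-1.77 ± 0.26, adjusted p = 0.00526) the only one of 20 leaning on interferon gamma (median -0.66). Of 19 MHC class I presentation genes 5 were lower and 0 higher, with a median of -0.57. They were H2-Q7 (-1.51 ± 0.18, adjusted p = 0.00114), Psmb9 (-0.88 ± 0.18, adjusted p = 0.0233), Psmb8, H2-Q6 and H2-K1 (-0.62 ± 0.13, adjusted p = 0.0411). In other C1q macrophages 17 of the 19 were lower and 0 higher (median -0.85). There, 23 antiviral effectors (list median -0.75) and 18 genes leaning on interferon gamma (median -1.49) were lower, with 0 higher in either list. The difference between the list counts of members and others was not tested.

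Mrc1, Pf4, Gas6 and Igf1 were among the genes higher in B2m-null tumours with isotype. Of 30 macrophage state genes, Mrc1 was higher and Fcgr4 lower, with a list median of 0.33. Mrc1 stood at 1335, 1114 and 1208 CPM against 516 to 711 CPM (0.97 ± 0.15, adjusted p = 0.00526). Pf4, a platelet and macrophage chemokine, stood at 2905, 2916 and 3431 CPM against 1067 to 1830 CPM (1.09 ± 0.19, adjusted p = 0.0164). Gas6, the ligand of the receptors that clear apoptotic cells, was higher by 1.43 ± 0.26 (adjusted p = 0.0164), and the growth factor Igf1 by 1.09 ± 0.22 (adjusted p = 0.0232). Over 17 alternatives the call was lost in 9 for H2-K1, 8 for Igf1, 7 for Psmb9, 6 for Gas6, 5 for Pf4 and 3 for Mrc1. Pf4 (0.91) and Mrc1 (0.89) both lost it with the library as the unit. Without the first isotype library of control tumours no gene passed in this comparison in edgeR, where 724 genes had an unadjusted p under 0.05, and with the library as the unit Isg15 was at -0.56 (adjusted p = 0.255).

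Under anti-CD40, 57 genes were higher (0.618%) and 73 lower (0.792%) in members of B2m-null than of control tumours. Irf7 stood at 344, 253, 227 and 282 CPM against 149 and 121 CPM (1.06 ± 0.17, adjusted p = 0.00531), and Isg15 was higher by 0.72 ± 0.15 (adjusted p = 0.0205). Slfn4 was higher by 1.85 ± 0.39 (adjusted p = 0.0214). Without members holding melanoma or neutrophil UMIs above 5, Isg15 (0.58, adjusted p = 0.117), Irf7 (0.80, adjusted p = 0.0584) and Slfn4 (1.52, adjusted p = 0.141) did not pass. Ccl9 stood at 941, 935, 926 and 1204 CPM against 429 and 288 CPM (1.53 ± 0.22, adjusted p = 0.00258), and Ccl12, Pf4 and Cxcl2 also passed among 20 chemokines, with none lower and a list median of 0.88. Spp1 (osteopontin) was higher by 1.62 ± 0.34 (adjusted p = 0.0205) and Cd14 by 1.65 ± 0.25 (adjusted p = 0.00403). Wfdc17 stood at 1621 to 2197 CPM against 5971 and 4083 CPM (-1.41 ± 0.19, adjusted p = 0.00184). The fit without the second lane of anti-CD40 in control tumours rests on a single mouse of that group. It therefore cannot show how far these calls depend on the lane.

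The anti-CD40 effect within the members was tested for a difference between the tumour genotypes. It was higher in B2m-null tumours for 27 genes (0.293%) and lower for 47 (0.51%). Isg15 fell in control and rose in B2m-null tumours, and the effects differed by 1.63 ± 0.20 (edgeR adjusted p = 0.000445). Irf7 did the same (1.59 ± 0.22, adjusted p = 0.000691). Acod1 differed by 2.61 ± 0.39 (adjusted p = 0.00109), H2-Q7 by 1.61 ± 0.27 (adjusted p = 0.00482), Ly6c2 by 2.95 ± 0.61 (adjusted p = 0.0218), Il1b by 2.74 ± 0.63 (adjusted p = 0.0466) and Ccl2 by 1.37 ± 0.31 (adjusted p = 0.0372). Wfdc17 went the other way (-1.95 ± 0.25, adjusted p = 0.000445). Of 44 antiviral effectors 4 passed, Isg15, Slfn4, Ifi35 and Phf11d, all higher, with a list median of 0.77 (all genes 0.01). With the library as the unit, 14 genes passed in place of 74, and Isg15 (1.12, adjusted p = 0.147), H2-Q7 (1.15, adjusted p = 0.0891), Ly6c2 (2.74, adjusted p = 0.109), Ccl2 (1.29, adjusted p = 0.274) and Wfdc17 (-1.75, adjusted p = 0.0683) did not. Over 16 alternatives the call was lost in 11 for Phf11d, in 9 for Slfn4 and Ccl2 and in 7 for Ly6c2 and Il1b.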

How the data were processed

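Cells were 10x 3' v3 libraries of CD45-selected tumour cells. Per the submitters' processing notes, reads were handled with bcl2fastq 2.20.0.422 and Cell Ranger 3.0.0 on mm10, and the deposited values are raw UMI counts per gene and hashtag. Barcodes with at least 200 genes and at most 10% mt- UMIs were kept. Hashtags were assigned per library by a mixture model on log counts (scikit-learn 1.9.0, posterior of at least 0.9, at least 20 hashtag counts), and barcodes with 2 hashtags were left out of values per mouse; no expression-based doublet caller was run. Mice needed 100 C1q macrophages for shares and 20 members for expression.

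Summed counts were fitted in edgeR 4.0.16 (R 4.3.3; TMM, quasi-likelihood, genes filtered on low counts, all groups in 1 fit), with 14 genes used by the rule left out of counts of calls. Shares were compared by exact permutation (scipy 1.17.1) and again with each cell thinned to 5000 UMIs. The descriptive ratios used CPM with a pseudocount of 1 and no test. Alternatives were DESeq2 1.42.0, RLE factors, no filter, stricter thresholds, the library as the unit, a replicate block and leaving out each library. After the values were seen, fits without dendritic marker UMIs or without cells holding over 5 melanoma or 5 neutrophil UMIs, and the permutation of the difference in effects, were added. Named genes per contrast were the 12 with the largest rise and the 12 with the largest fall among those with adjusted p under 0.05, at least 20 CPM and no overlap between mice; for the description, the 30 highest and 10 lowest with 1 sign in every mouse; and the 24 gene lists. Members, lists and several named genes were chosen with earlier results of these data known. The fits were tested on simulated data. Some genes of the lists are not reported here.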

Additional observations from a re-analysis of the deposited data

Results flagged for a closer look

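The effect of anti-CD40 within interferon-signature macrophages differed between the tumour genotypes by the interaction test for 74 genes. The effect in B2m-null minus that in control tumours was 1.63 on the log2 scale for Isg15, 1.59 for Irf7, 1.61 for H2-Q7, 2.61 for Acod1, 2.16 for Slfn4, 1.15 for Phf11d, 2.95 for Ly6c2, 2.74 for Il1b, 1.37 for Ccl2 and -1.95 for Wfdc17. Several of these calls were not stable: over 16 alternatives the call was lost in 11 for Phf11d, in 9 for Slfn4 and Ccl2, in 7 for Ly6c2 and Il1b, in 4 for H2-Q7, in 2 for Isg15, Acod1 and Wfdc17 and in 1 for Irf7. With the library as the unit the adjusted p in edgeR was 0.109 for Ly6c2, 0.274 for Ccl2 and 0.0683 for Wfdc17. Of these, Isg15 and Irf7 fell with anti-CD40 in control tumours and rose in B2m-null tumours, whereas Acod1 and H2-Q7 changed past the threshold only in the B2m-null comparison and Ly6c2, Il1b, Slfn4 and Ccl2 only in the control comparison.

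In 10 of 99 groups of per-mouse values 1 mouse stood far from the others of its group, where about 1 in 20 is flagged by chance. Groups of 2 or 3 mice were too small for this check. Levels in members under anti-CD40 in control tumours and with isotype in B2m-null tumours were thus not screened. In isotype-treated control tumours the second mouse of the first library had the lowest level of Ccl17 and of Cxcl13 (1.49 CPM each), the highest of Ccr2 (430 CPM) and the highest of Cd74 (3799 CPM). In the second library of that group 1 mouse had 48.1 CPM of Ccr7. In anti-CD40-treated B2m-null tumours the mice of the first library included 1 with 10.0 CPM of Ccr7 and 90.1 CPM of Stat2 and 1 with 34.1 CPM of Vcan, and a mouse of the second library had 1204 CPM of Ccl9 and 106 CPM of Cxcl13.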

How the results depend on the processing

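Direction was kept by all 71 named gene values in 1149 alternative values, of which 873 kept the call and 276 lost it; 8 values kept their call throughout (Irf7, Slfn4, Ifit1bl1, Ly6c2, Vcan and Mgl2 for anti-CD40 in control tumours, H2-Q7 and Mrc1 in B2m-null tumours). Share differences in points: anti-CD40 in B2m-null tumours, -0.345, turned to 1.94 after thinning, 0.325 with at least 10 interferon UMIs and 1.86 with at most 5% mt- UMIs, and ranged from -2.24 to 1.55 leaving out a library; the other ranges are likewise from leaving out a library. Anti-CD40 in control tumours ranged from -12.2 to -6.47 and genotype under isotype from -9.16 to -3.43 (-9.94 thinned), both nearest 0 without the first control isotype library. With 10 interferon UMIs they were -4.66 and -3.04, at lower shares (control isotype mean 7.33% in place of 15.8%). Control isotype over the other group was then 2.74-fold in place of 2.69 and 1.71-fold in place of 1.77. Genotype under anti-CD40 ranged from 1.43 to 3.96 (-0.540 thinned, 4.54 with at most 5% mt- UMIs). Counts of genes were as follows, with the range over leaving out each library last. Anti-CD40 in control tumours, 575: 167 with at least 10 interferon UMIs, 304 with mice of at least 50 members, 168 to 636 (168 without the second anti-CD40 lane, 250 without the first isotype library). Anti-CD40 in B2m-null tumours, 361: 612 without the count filter, 64 with 10 UMIs, 111 with 50 members, 548 by library, 18 to 313 (18 without the second isotype library). Genotype under isotype, 46: DESeq2 95, no filter 310, 10 UMIs 20, 50 members 16, by library 17, 0 to 61. Genotype under anti-CD40, 130: DESeq2 239, no filter 461, 10 UMIs 7, 50 members 29, 14 to 208. Difference of the anti-CD40 effects, 74: DESeq2 162, no filter 264, 10 UMIs 11, 50 members 35, by library 14, 6 to 133. Members minus others: in control tumours, 78, no filter 304, 11 to 141; in B2m-null tumours, 27, RLE 17, no filter 197, 1 to 50. Stricter thresholds leave fewer cells or mice, and the cause of the other moves was not tested. With 10 interferon UMIs, with 50 members or without the second anti-CD40 lane, a single anti-CD40 mouse with control tumours remains. It is assumed to vary like the other groups, and the counts above carry this limit. The 32 to 54 members of the 4 smallest mice limit the depth.

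Library numbers recur across groups but nothing says that they pair them. With the number as a replicate block 365 genes passed for anti-CD40 in B2m-null tumours and 21 for genotype under isotype; deviations of same-numbered libraries correlated at 0.179 and -0.004.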

Other observations

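The interferon rule genes were not restricted to the members. At least 5 UMIs of Rsad2, Ifit1, Ifit2 and Ifit3 were found in 7878 kept barcodes, of which the members were 30.6%. C1q-positive cells with more than 1 Nos2 UMI (inducible nitric oxide synthase, an enzyme of activated macrophages) met the threshold in 828 of 2656 (31.2%), at a deeper median of 9445 UMIs per cell. Pooled over cells by group, this share was 48.8% with isotype and 20.1% with anti-CD40 in control tumours, and 36.1% and 31.6% in B2m-null tumours. C1q-positive cells with more than 1 UMI of the resident macrophage genes Lyve1, Cd163 and Cd209f met it in 509 of 2987 (17.04%), at 27.6% and 3.35% in control and 17.4% and 8.05% in B2m-null tumours. These shares are of cells and carry no test.

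Of 81 ribosomal protein genes, a list drawn up after the values were seen, 39 were higher and 0 lower with anti-CD40 in members of control tumours (median log2 change 0.38), and 11 passed in B2m-null tumours, each of them higher (median 0.30). Of all genes tested in the members, 3.8% and 1.92% were higher in these comparisons. In other C1q macrophages 34 ribosomal protein genes were higher and 1 lower in control tumours (median 0.26), and 59 and 0 in B2m-null tumours (median 0.39).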
